A study of Mus musculus with 33 samples.

Results

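Activated and resting microglia of vehicle-treated mice were compared across all genes in 10 of the 33 libraries of the study, 5 libraries per group, chosen by the population and treatment in their labels. All mice carried the disease induction labelled Cortical MS, a multiple sclerosis model, and no library came from mice without it, so both groups are cells of diseased brain. Cells were sorted by flow cytometry. Activated microglia had high CD45 and high CD11b without the chemokine receptor CCR2, and resting microglia had intermediate CD45 and CD11b. A group of 5 libraries from vehicle mice with high CD45, high CD11b and CCR2, labelled blood-derived phagocytes, served as a reference for levels. None of these groups took the CSF1R inhibitor used in the rest of the study. Strain, age and sex are not given in the sources used here, nor is it stated whether each library came from its own animal, so p-values measure the spread between libraries. Of 21950 protein-coding genes in the count table, 12098 passed the filter on low counts and were tested.

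Microglia are the resident macrophages of the brain. They arise early in development, live long and depend on signals through CSF1R, and in an undisturbed brain they sample their surroundings through nucleotide, chemokine and lipid receptors under the influence of TGF-beta. During inflammation they can raise CD45 and CD11b and lose part of that programme, while monocytes, neutrophils and lymphocytes enter from blood. Neutrophils and NK cells also carry high CD45 and CD11b and lack CCR2 on most cells, so a sort on these 3 proteins does not by itself keep them from the activated gate.

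Libraries held 11789803 to 21243113 counts. The 5 activated libraries had 9829 to 13153 genes with at least 1 count and the 5 resting libraries 13650 to 14861, with no overlap. Correlations of log expression between libraries of a group ran from 0.735 to 0.889 in activated and from 0.944 to 0.969 in resting microglia. Activated replicate 2, with the 9829 detected genes, stood apart on the first and the second principal component. On the first, which separated the groups, it lay at -272, and the other activated libraries lay from -101 to -43.2. The sort delivered cells directly to lysis buffer, and a low-input SMART-Seq kit made the cDNA. The labels state that cell numbers and PCR cycles differed between samples but give them for no single library. Levels are CPM, library-scaled counts normalised by TMM over the 15 vehicle libraries, and levels in libraries 1 to 5 of a group are given in that order. Differences are log2 from the 10 libraries, activated minus resting. The standard error of an edgeR difference was derived as its size over the square root of its F statistic, so it restates the test. A gene was called at an edgeR quasi-likelihood p under 0.05 after Benjamini-Hochberg adjustment over all genes tested. Because these are bulk libraries, fewer cells of a type and less RNA per cell cannot be told apart for any gene.

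The genes that mark the gates showed both a microglial and a blood-cell part in the activated libraries. P2ry12 (ENSMUSG00000036353, GRCm38 chromosome 3, 59216272 to 59262871), the ADP receptor of resident microglia, stood at 154, 34.3, 40.5, 423 and 328 CPM in the activated libraries and at 3302, 1737, 3056, 2549 and 2413 CPM in the resting ones. The groups did not overlap, and activated replicates 4 and 5 kept the most P2ry12 while replicates 2 and 3 kept the least. Its difference was -3.72 ± 0.70 (edgeR adjusted p = 0.00218), and blood-derived phagocytes, at 92.5 ± 31.9 CPM (mean ± SD, n = 5), had less still on average. Csf1r (ENSMUSG00000024621, GRCm38 chromosome 18, 61100598 to 61132149), the growth factor receptor of macrophages, stood at 2262, 973, 1007, 2143 and 2189.9 CPM in activated and 9703 to 11378 CPM in resting libraries, against 3934 ± 378 CPM in blood-derived phagocytes. Activated replicates 2 and 3 were again the lowest, and every activated library lay below every blood-derived one.

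Cxcr2 (ENSMUSG00000026180, GRCm38 chromosome 1, 74153989 to 74161246), the chemokine receptor that draws neutrophils out of blood, stood at 1179, 930.3, 935, 1635 and 885 CPM in activated libraries. In resting libraries it ran from 0 to 1.06 CPM and in blood-derived phagocytes from 0 to 1.27 CPM. It was thus high in all 5 activated libraries and near 0 in the other two gates (11.40 ± 0.84, edgeR adjusted p = 6.5e-06). Gzma (ENSMUSG00000023132, GRCm38 chromosome 13, 113093825 to 113100981), a granzyme of NK cells and cytotoxic T cells, stood at 221, 599, 977, 300.0 and 182 CPM in activated and 0 to 0.755 CPM in resting libraries (10.78 ± 0.93, edgeR adjusted p = 1.3e-05), with 3.3 to 12.9 CPM in blood-derived phagocytes. Activated replicates 2 and 3, lowest for P2ry12, were highest for Gzma. Ccr2, whose protein was absent from the activated gate by sorting, stood at 185, 78.5, 94.3, 45.3 and 63.3 CPM in activated, 17.4, 11.5, 4.05, 1.28 and 1.32 CPM in resting and 196 to 260.0 CPM in blood-derived libraries (3.69 ± 0.76, edgeR adjusted p = 0.00379). Every activated library exceeded every resting one and lay below every blood-derived one.

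**Figure D1:**
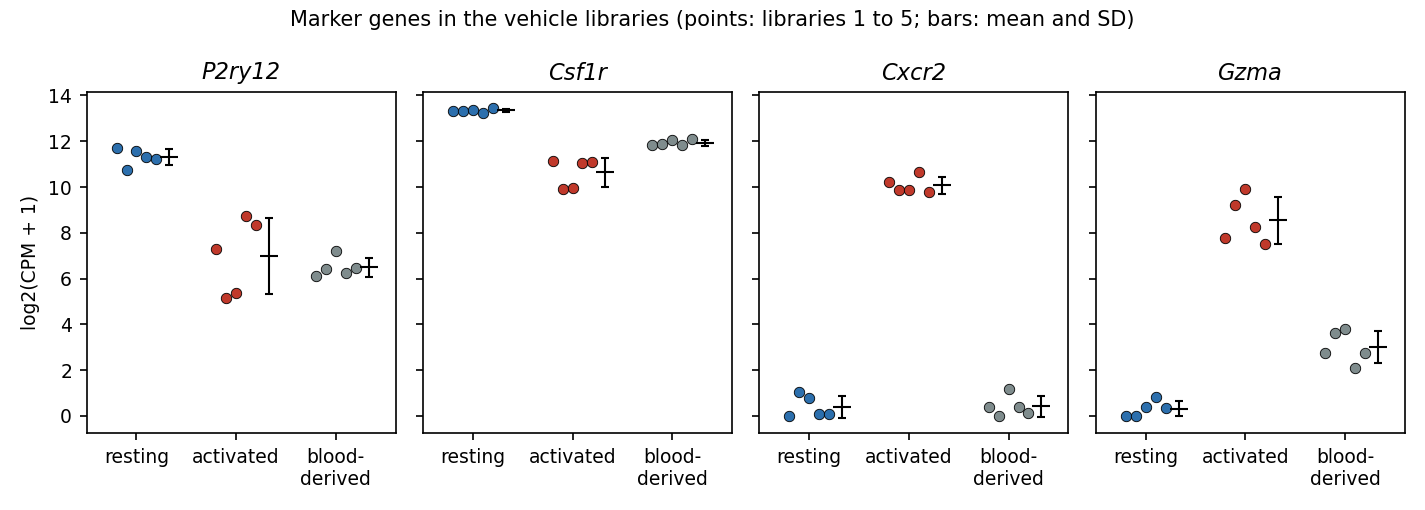
Levels of P2ry12, Csf1r, Cxcr2 and Gzma as log2(CPM + 1) in the vehicle libraries, with 1 point per library and the mean and SD beside them. Cxcr2 is near 0 in resting and blood-derived libraries and between 885 and 1635 CPM in the 5 activated libraries.

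Of the 12098 genes, 2205 (18.2%) were called higher and 1294 (10.7%) lower in activated microglia, and the median over all genes was -0.10. The split depended on the tool, with 2600 higher and 2452 lower by DESeq2, 2621 and 2401 by limma-voom, and 2584 and 3007 by limma-trend on the FPKM values of the second table. The 2205 higher genes were sorted by their mean level in blood-derived phagocytes, a gate where the neutrophil receptor Cxcr2 was near 0. For 415 of them (18.8% of those higher) the blood-derived level was below 0.25 times the activated level, and for 175 (7.94%) it was below 0.0625 times. For 464 (21%) the blood-derived level was at least the activated level, and 426 of these had at least 20 CPM in activated microglia. The remaining 1326 (60.1%) lay between and were not assigned to either side. These classes are a description of mean levels, since the blood-derived gate is itself made of phagocytes and lymphocyte genes were low but not absent there. They do not say which cells of the activated gate held a transcript, and a gene of the 464 can be in neutrophils as well. Counts of list members are to be read against the 18.2% and 10.7% of all genes.

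**Figure D2:**
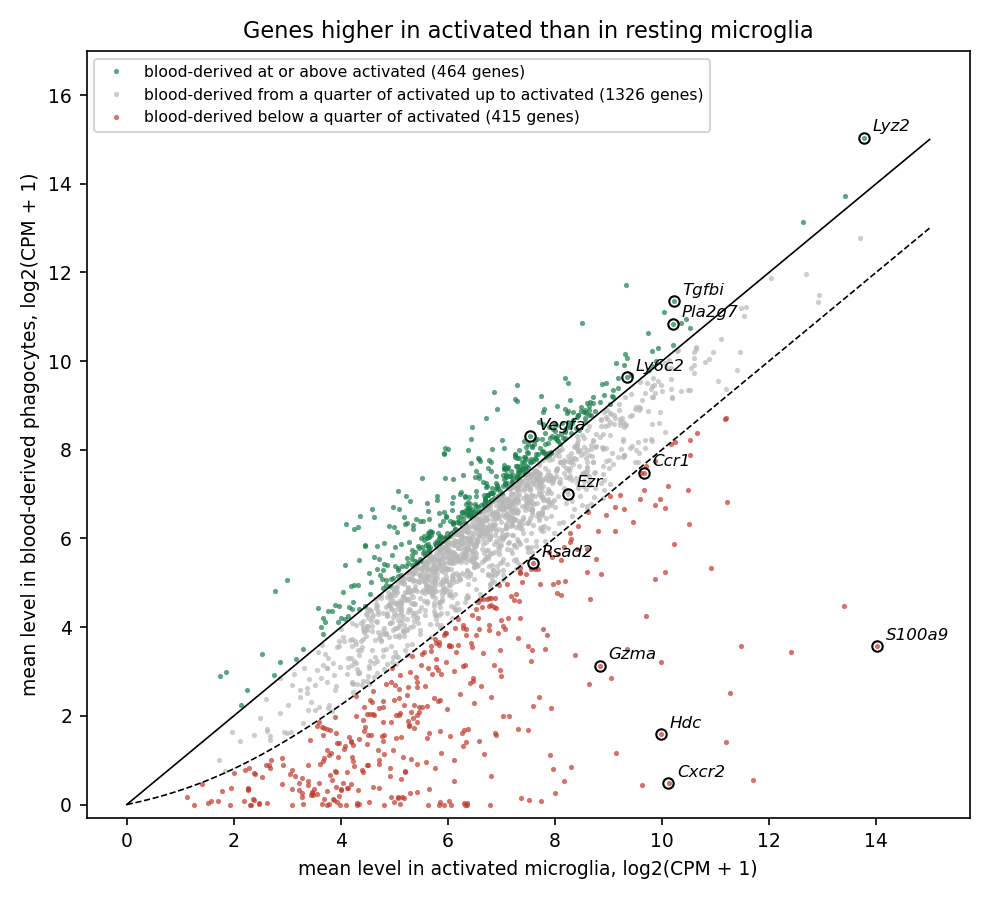
Mean level of the 2205 genes called higher in activated microglia, with the activated level on the x axis and the blood-derived level on the y axis, both as log2(CPM + 1). The solid line marks equal levels and the dashed line 0.25 times the activated level, with 464 genes on or above the solid line and 415 below the dashed one.

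To set a macrophage scale beside this, libraries were also scaled so that the geometric mean of 10 macrophage genes (among them C1qa, C1qb, C1qc, Csf1r, Mertk, Adgre1, Fcgr1, Lgmn and Cd68) was equal in all. This scale rests on the assumption that these genes track macrophage RNA alike in both gates, which was not tested. Their summed level was 6501 ± 2744 CPM (SD, n = 5, before TMM) in activated and 33469 ± 2057 CPM in resting libraries (exact permutation test, two-sided, p = 0.00794, the smallest possible for 5 against 5, and 0.00794 after adjustment over 4 summed levels). In blood-derived libraries it was 14023 ± 770 CPM. The sum thus also differed between the resting and blood-derived gates, both with Cxcr2 near 0, and it was not read as a share of macrophages. Per macrophage transcript the median of all genes moved to 2.09, with 8196 genes (67.7%) higher and 173 (1.43%) lower, so what is read from this scale is the set of genes that were lower on it. All 173 were also lower on the TMM scale, and all 2205 genes higher on the TMM scale were higher per macrophage transcript. Both follow largely from the upward shift that the second scale gives to every gene. Being lower or higher on both scales is therefore not separate evidence.

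Neutrophil genes formed the largest sums among the blood-cell lists. Summed over 29 neutrophil genes before TMM, the activated libraries held 38408, 30994, 32491, 97589 and 67160.4 CPM and the resting libraries 849 to 1151 CPM (exact permutation test, two-sided, p = 0.00794, adjusted 0.00794). Replicates 4 and 5 held the most, and the resting sum was mostly Csf3r, the G-CSF receptor, at 719.7 to 855 CPM after TMM. All 15 mature neutrophil genes were higher, with a median of 9.86 against -0.10 for all genes. In all 15 the blood-derived level was below 0.25 times the activated level, against 18.8% of all higher genes. Members near 0 in resting libraries passed the filter only through the activated libraries, so this count describes levels and is no separate test. S100a9, a subunit of the calprotectin complex, stood at 11888, 10053, 10392, 33490.3 and 17149 CPM in activated and 0.0572 to 50.8 CPM in resting libraries (9.86 ± 1.33, edgeR adjusted p = 2.5e-04). The groups did not overlap, and replicate 4, with the highest sum, was also the highest for S100a9.

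Granule genes separated the neutrophil genes by the stage at which they are made. Ltf, encoding the lactoferrin of secondary granules, stood at 1669, 198, 368, 6367 and 3807 CPM in activated libraries, and Ngp, another granule protein of late precursors, at 3262, 999, 1036, 12638 and 9302 CPM. Both were several times higher in replicates 4 and 5 than in replicates 2 and 3, whereas Cxcr2, made in mature cells, varied less among the same libraries. All 9 secondary and tertiary granule genes were higher (median 8.52). The 1 of them whose blood-derived level was at or above the activated one was Chil3, a chitinase-like protein that mouse macrophages also make. Primary granule genes, made in promyelocytes, were low outside replicate 5, with a sum of 6.36, 0, 0, 26.6 and 267 CPM in the activated libraries, and only Prtn3 passed the filter (4.08 ± 1.97, not called, edgeR adjusted p = 0.15). Hdc, the histamine-forming enzyme, stood at 1091, 666, 772, 1810.4 and 719.6 CPM in activated and 0.702 to 1.7 CPM in resting libraries. None of the 6 mast cell and basophil genes passed the filter, and their sum was at most 2.98 CPM in an activated library.

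Lymphocyte genes were also in the activated gate and varied differently among its libraries. All 9 NK and cytotoxic cell genes tested were higher (median 9.66). Genes near 0 in resting libraries could pass the filter only through the activated ones. This count and those of T cell, B cell and eosinophil genes below therefore describe levels and are no separate test. The sum of the NK list was 954, 2139, 3841, 1431 and 834 CPM in the activated libraries against 1.89 to 7.47 CPM in resting ones. Replicates 2 and 3 held the most, the libraries that held the least of the granule genes. Prf1, encoding the pore protein perforin, had 38216 counts in the activated libraries and none in the resting ones. In reads this was 11412-fold above a floor of 3 counts over the resting group. Of 11 T cell genes tested 10 were higher (median 5.67), among them Lck, the kinase of the T cell receptor, at 42.6, 61.4, 197, 87.5 and 48.6 CPM in activated and 0.421 to 1.49 CPM in resting libraries (6.51 ± 0.56, edgeR adjusted p = 1.3e-05). The T cell gene that was not called was Il7r, an interleukin receptor gene present in both gates (29.9 to 59.2 CPM in activated and 46.3 to 85.7 CPM in resting libraries, -0.72 ± 0.25, edgeR adjusted p = 0.0515).

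Of 5 B cell genes tested 3 were higher. Ms4a1, which encodes CD20, stood at 5.62, 73.7, 59.2, 13.3 and 24.7 CPM in activated libraries and had no count in resting ones. In reads this was 1011-fold above the same floor. Cd22 and Cd79b were in resting libraries at 14.3 to 61.6 and 21.4 to 31.4 CPM and were not called (edgeR adjusted p = 0.52 and 0.49), although the resting gate had no Ms4a1 count. Of 3 eosinophil genes 2 were higher. Prg2, encoding the major basic protein of eosinophil granules, stood at 14.9, 0.676, 32.3, 228 and 22 CPM in activated libraries, with replicate 4 far above the rest. It had no count in resting libraries, and in reads its activated level was 1543-fold above the same floor. Siglecf, a sialic acid receptor used to sort eosinophils, stood at 36.3 to 235 CPM in activated and 77.6 to 131 CPM in resting libraries and was not called (0.00 ± 0.42). Of 6 dendritic cell genes 3 were higher and 1 lower. Cd209a, a lectin of monocyte-derived dendritic cells, stood at 181, 57.6, 48.9, 17.2 and 40.7 CPM in activated and 0 to 0.895 CPM in resting libraries, and its blood-derived level of 73.4 ± 35.5 CPM overlapped the activated one. The lower member, Siglech (-3.54 ± 1.18, edgeR adjusted p = 0.0444), is also a microglial gene, and its call was lost in 10 of 18 alternatives, with a reversed sign when the count of detected genes per library was added to the fit.

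Genes of erythroid cells, platelets and other brain cells did not mark the activated gate. No erythroid, platelet, neuron or oligodendrocyte gene was called, of 4, 2, 4 and 6 tested. Activated replicate 1 had an erythroid sum of 159 CPM, against 0.189 to 8.68 CPM in the other activated libraries. Without that library all 4 erythroid genes were called lower. Of 7 endothelial genes 2 were lower, and of 7 mural and fibroblast genes 1, the potassium channel gene Kcnj8, was higher at 7.92, 10.4, 41.6, 6.43 and 3.97 CPM against 0 to 1.32 CPM. The Kcnj8 call was lost without activated replicate 3 (edgeR adjusted p = 0.0518) and once detected-gene counts entered the fit (0.11). Of 6 astrocyte genes 1 was lower. That gene, Slc1a3, a glutamate transporter, stood at 0.624 to 61 CPM in activated and 187 to 261 CPM in resting libraries, a call lost once detected-gene counts entered the fit (edgeR adjusted p = 0.66). The summed neuron genes ran from 0 in activated replicate 2 to 14.7 CPM in activated and from 4.54 to 19.5 CPM in resting libraries.

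Outside the lists, the higher genes with the smallest p ran from genes nearly absent from blood-derived phagocytes to genes at similar levels there. Il1f9, an interleukin-36 family cytokine, stood at 238, 190.3, 249, 369.7 and 225 CPM in activated, 0 to 0.321 CPM in resting and 0 to 0.692 CPM in blood-derived libraries, a pattern like that of Cxcr2. Ifitm1, an interferon-induced membrane protein, stood at 497 to 1405 CPM in activated, 1.26 to 3.37 CPM in resting and 21.3 to 41 CPM in blood-derived libraries. Pram1 and Tbc1d10c, adaptor and GTPase-regulating genes of leukocytes, had means of 189 and 114 CPM in activated, 2.49 and 1.65 CPM in resting and 10.2 and 7.83 CPM in blood-derived libraries. The calcium-binding genes S100a6 and S100a11 were higher by 8.57 ± 0.52 and 8.23 ± 0.48, with blood-derived means of 82.3 and 103 CPM against activated means of 707 and 1058 CPM. At the other end, Gsn, the actin-severing gelsolin, had 523 ± 159 CPM in activated and 393 ± 33.7 CPM in blood-derived libraries, and Emb, the transporter partner embigin, 359 ± 48.9 and 234 ± 33.1 CPM.

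The 464 genes that were higher than in resting microglia and at least as high in blood-derived phagocytes are described here by those with the smallest p. Smpdl3a, a sphingomyelinase-like gene, had the smallest p among them, and its levels of 254, 238, 275, 284 and 259 CPM varied little among activated libraries. A gene with the smallest p is one with little spread within groups, so this evenness was favoured by the choice. Pla2g7, encoding a secreted phospholipase that inactivates platelet-activating factor, stood at 1280.3, 1408, 1119.7, 1210.4 and 872 CPM in activated and 58, 148, 47.4, 32.8 and 99.1 CPM in resting libraries, with 1839 ± 50.9 CPM in blood-derived ones (3.92 ± 0.39, edgeR adjusted p = 3.4e-05). Every activated library exceeded every resting library, and the blood-derived mean was higher than any activated library.

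Tgfbi, a matrix protein induced by TGF-beta, stood at 1492, 1494, 1037, 1146 and 809 CPM in activated and 91.6, 118, 73.2, 58.8 and 89 CPM in resting libraries (3.77 ± 0.24, edgeR adjusted p = 3.2e-06), with 2621 ± 399 CPM in blood-derived ones. It was lowest in activated replicate 5, one of the libraries rich in granule genes. Lyz2, the lysozyme of myeloid cells, stood at 16653, 11014, 12834, 13910.2 and 15788 CPM in activated, 1119.9, 2443, 809.6, 525 and 686 CPM in resting and 26937 to 38349.5 CPM in blood-derived libraries (3.65 ± 0.41, edgeR adjusted p = 8.1e-05). Neutrophils also express Lyz2, so its level names no single source. Lgals3, a galactose-binding lectin of phagocytes, stood at 468, 857, 569.7, 633 and 635 CPM in activated and 29.2, 100.3, 34.3, 27.7 and 39.7 CPM in resting libraries. Vim, the intermediate filament vimentin, stood at 531, 299, 602, 564 and 474 CPM in activated and 20.5 to 52.1 CPM in resting libraries (3.92 ± 0.30, edgeR adjusted p = 7.5e-06).

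Signalling genes of this class included Cxcr4, the receptor of CXCL12, and Vegfa, a vascular growth factor. Cxcr4 stood at 234, 291, 228, 179 and 123 CPM in activated and 7.37, 25.3, 7.99, 4.53 and 9.15 CPM in resting libraries (4.25 ± 0.46, edgeR adjusted p = 5.6e-05). Vegfa stood at 219, 255, 182, 179 and 91.4 CPM in activated and 4.63, 20.6, 10.2, 7.93 and 4.52 CPM in resting libraries (4.24 ± 0.47, edgeR adjusted p = 6.5e-05). Both were lowest in activated replicate 5, and among resting libraries both were highest in replicate 2. Cfp, encoding the complement stabiliser properdin, stood at 282, 292, 309.5, 261 and 174 CPM in activated and 15.5, 37.9, 11.8, 9.89 and 7.21 CPM in resting libraries, and Napsa, an aspartic protease, at 299, 182, 322, 193 and 169 and 1.79, 5.14, 2.38, 0.151 and 0.629 CPM. Each of these genes was separated between the activated and resting gates without overlap, which the choice by smallest p favoured. The 25 genes of the class with the smallest p differed by 1.10 for Snx3, a sorting nexin, to 6.80 for Napsa, with 4.39 for Ahnak, a large scaffold protein, and 6.34 for the monocyte surface gene Ly6c2.

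**Figure D3:**
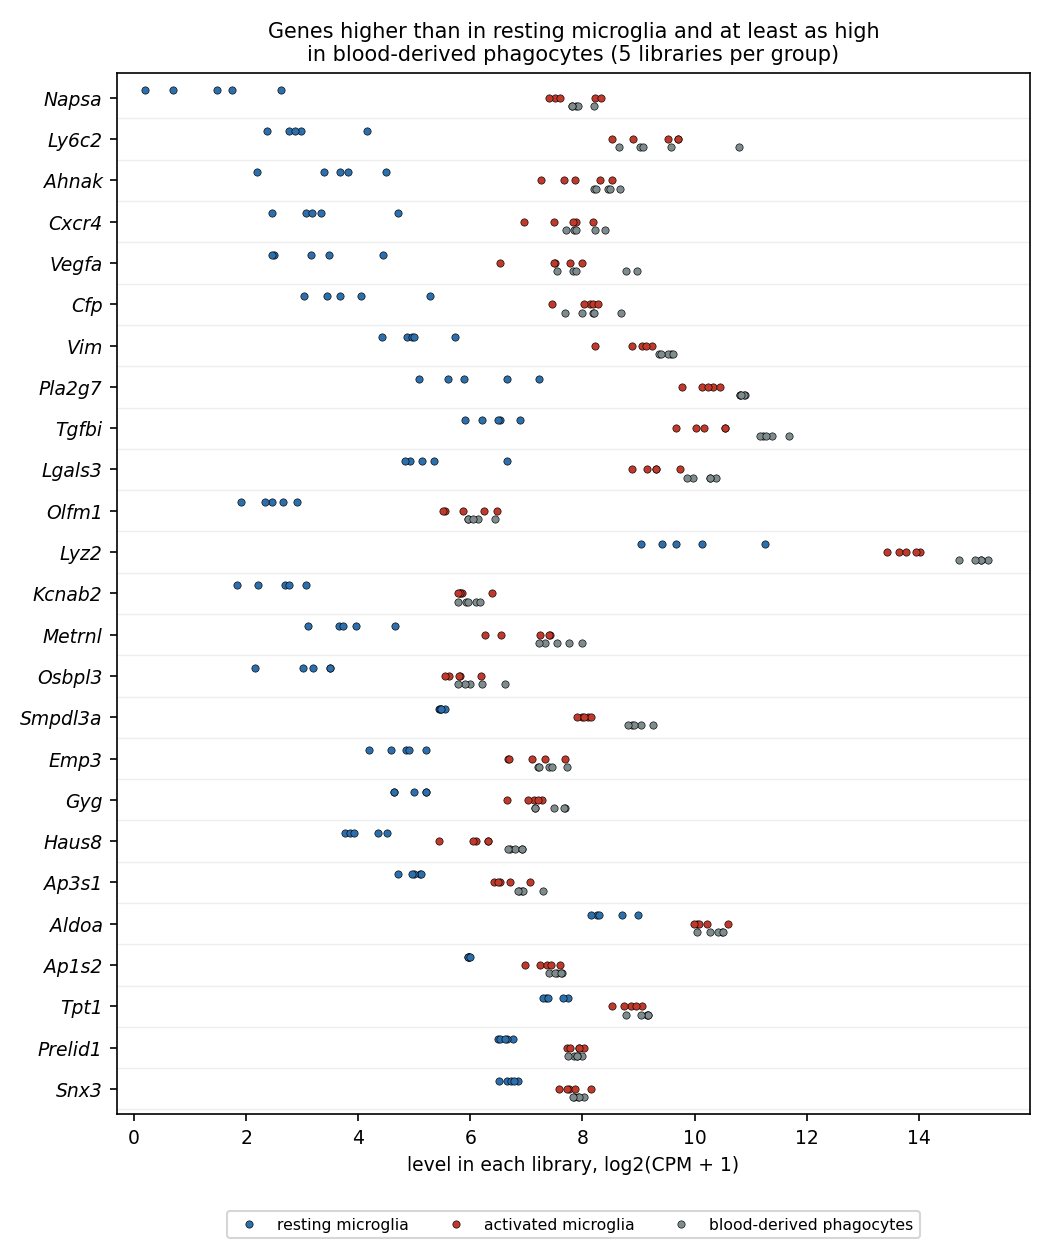
Levels as log2(CPM + 1) in each vehicle library for the 25 genes with the smallest p among those called higher in activated microglia whose blood-derived mean was at or above the activated mean. Activated and resting libraries do not overlap for any of the 25, which the choice by smallest p favours. Smpdl3a lies between 238 and 284 CPM in activated libraries.

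Lists of macrophage states fell on this side of the comparison to different degrees. Of 15 genes of monocyte-derived macrophages 12 were higher and none lower (median 3.92), against 18.2% of all genes higher. In 8 of the 12 the blood-derived level was at or above the activated one, against 21% of all higher genes. Thbs1, the matrix glycoprotein thrombospondin, stood at 1290.1, 328, 656, 1483 and 512 CPM in activated and 45.4, 108, 47.8, 42 and 36.3 CPM in resting libraries (3.94 ± 0.50, edgeR adjusted p = 1.8e-04). Mgst1, a glutathione transferase of monocytes and granulocytes, stood at 127, 199, 149, 299 and 268 and 1.42 to 4.91 CPM, with 201 ± 53.9 CPM in blood-derived libraries. Of 11 genes of border-associated macrophages, the cells of meninges and vessel walls, 3 were higher. Ms4a7 stood at 283, 81.8, 182, 122 and 104 CPM in activated and 15.4, 40.7, 6.37, 1.21 and 3.37 CPM in resting libraries (3.52 ± 0.82, edgeR adjusted p = 0.00753), and 446 to 871 CPM in blood-derived ones. Mrc1, the mannose receptor that defines these cells, was not called, with 10.2 to 115 CPM in activated and 2.0 to 66.8 CPM in resting libraries (1.36 ± 0.90, edgeR adjusted p = 0.3).

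Of 19 genes of disease-associated macrophages 4 were higher and 3 lower (median -0.28), shares near the 18.2% and 10.7% of all genes. Apoe, the main apolipoprotein of brain, stood at 16836, 9804, 9049, 6182 and 20577 CPM in activated and 1741, 9178, 883, 1943 and 12643 CPM in resting libraries and was not called (1.24 ± 0.69, edgeR adjusted p = 0.21). Resting replicates 2 and 5 lay within the activated range while the other 3 resting libraries lay below it. Trem2, the lipid receptor of the pathway, was lower (-2.19 ± 0.28, edgeR adjusted p = 1.8e-04), and Tyrobp, its signalling partner, which neutrophils and NK cells also use, was higher (0.83 ± 0.15, edgeR adjusted p = 0.00146). Of 18 lipid-handling genes 6 were higher and 3 lower. In 5 of the 6 the blood-derived level was at or above the activated one, against 21% of all higher genes. Plin2, the coat protein of lipid droplets, stood at 413, 686, 329, 477 and 195 CPM in activated and 72.3, 144, 104, 73.2 and 76.5 CPM in resting libraries (2.13 ± 0.32, edgeR adjusted p = 4.7e-04). The cholesterol exporter Abca1 was lower (-0.98 ± 0.25, edgeR adjusted p = 0.0128), a call lost once detected-gene counts entered the fit (adjusted p = 0.44). Nr1h3, the oxysterol receptor that controls Abca1, was named after its values were seen and was higher (2.83 ± 0.58, edgeR adjusted p = 0.0036, and 0.0643 with that term).

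Of 16 homeostatic microglia genes, those that mark resident microglia in an undisturbed brain, 15 were lower on the TMM scale, with 7 to 16 lower over 18 alternatives. Per macrophage transcript 8 of the 16 were lower and 1 was higher, against 1.43% and 67.7% of all genes, with a median of -1.28 against 2.09. Csf1r, among the 8, is also 1 of the 10 scaling genes, so its own level sets part of that scale. Of the 173 genes lower on both scales, 172 had a lower mean in blood-derived phagocytes than in resting microglia, and 144 had less than 0.25 times the resting level there. In 43 the blood-derived level was below the activated level too. Of all 1294 genes lower on the TMM scale, 1178 had a blood-derived mean below the resting one and 322 below the activated one. The share with a blood-derived level below the activated one was thus like that of all lower genes. The number 173 depended on single libraries, with 274 to 370 genes when any 1 of the activated libraries 1 to 5 was left out and 150 to 198 when any 1 resting library was. Gpr34, a lysophosphatidylserine receptor, stood at 106, 15.5, 34.2, 264 and 202 CPM in activated and 2342, 1125, 1801, 1745 and 1279.9 CPM in resting libraries, a difference of -3.73 ± 0.71 (edgeR adjusted p = 0.00233) and of -1.94 ± 0.51 per macrophage transcript (adjusted p = 0.00314). P2ry12 differed by -1.93 ± 0.50 per macrophage transcript (edgeR adjusted p = 0.0029).

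Tlr3, the sensor of double-stranded RNA, stood at 18.3, 9.83, 6.5, 11.6 and 16.1 CPM in activated and 148, 113, 107, 128 and 184 CPM in resting libraries (-3.46 ± 0.31, edgeR adjusted p = 1.6e-05, and -1.41 ± 0.34 per macrophage transcript). Every activated library lay below every blood-derived one (23 to 41.4 CPM), and Tlr3 kept its call on both scales in every alternative. Pros1, encoding the ligand that bridges dying cells to the receptor MERTK, stood at 50.1, 34.1, 16.2, 115 and 90.1 CPM in activated and 697, 528, 660.0, 582 and 603 CPM in resting libraries (-3.33 ± 0.48, edgeR adjusted p = 3.9e-04, and -1.38 ± 0.38 per macrophage transcript). Activated replicates 4 and 5 were highest for Pros1, as for P2ry12 and Gpr34. Plxdc2, a surface receptor of resident microglia, stood at 55.5, 24.7, 12.5, 106 and 131 CPM in activated and 731 to 905 CPM in resting libraries, and Tjp1, a tight junction scaffold, at 8.24, 2.86, 7.78, 25.4 and 14.1 and 110.0 to 142 CPM.

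Some genes of this set had a higher mean in the activated gate than in blood-derived phagocytes, although single activated libraries overlapped them. Sparc, a matrix-binding protein secreted by resident microglia, stood at 151, 90.9, 40.9, 564 and 361 CPM in activated, 1789 to 3197 CPM in resting and 9.47 to 99.7 CPM in blood-derived libraries. Cd81, a tetraspanin, stood at 327, 177, 93.7, 556 and 785 CPM in activated and 2612 to 3347 CPM in resting libraries, with 96.6 to 184 CPM in blood-derived ones. Lag3, an inhibitory receptor best known from T cells, was lower although T cell genes were higher, at 6.3, 2.81, 2.07, 8.67 and 24.2 CPM in activated and 68.2 to 86 CPM in resting libraries (-3.14 ± 0.61, edgeR adjusted p = 0.00266). The collagen gene Col27a1 stood at 15.2, 0, 0.141, 6.49 and 18.8 CPM in activated and 99.2 to 166 CPM in resting libraries, and Col6a3 at 2.81, 0, 0.0471, 3.77 and 2.42 and 34.2 to 63.6 CPM. Activated replicate 2 was the lowest for both. Once detected-gene counts entered the fit the calls of P2ry12, Gpr34, Sparc, Cd81, Lag3, Col27a1 and Col6a3 on the TMM scale were lost (edgeR adjusted p = 0.11, 0.12, 0.1, 0.0661, 0.12, 0.58 and 0.26). Those of Tlr3, Pros1, Plxdc2 and Tjp1 were kept. Detected-gene counts did not overlap between the groups, so this fit cannot separate them from the comparison itself, and a lost call there does not show that a gene is unchanged. Per macrophage transcript the calls of Csf1r, the adenosine receptor Adora3 and Col27a1 did not hold in every alternative. With summed scaling genes Csf1r was at -0.41 ± 0.26 and Adora3 at -0.93 ± 0.44 (edgeR adjusted p = 0.17 and 0.0691). Both also lost the call whenever 1 resting library was left out, and Col27a1 lost it with a replicate block (0.0557).

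**Figure D4:**
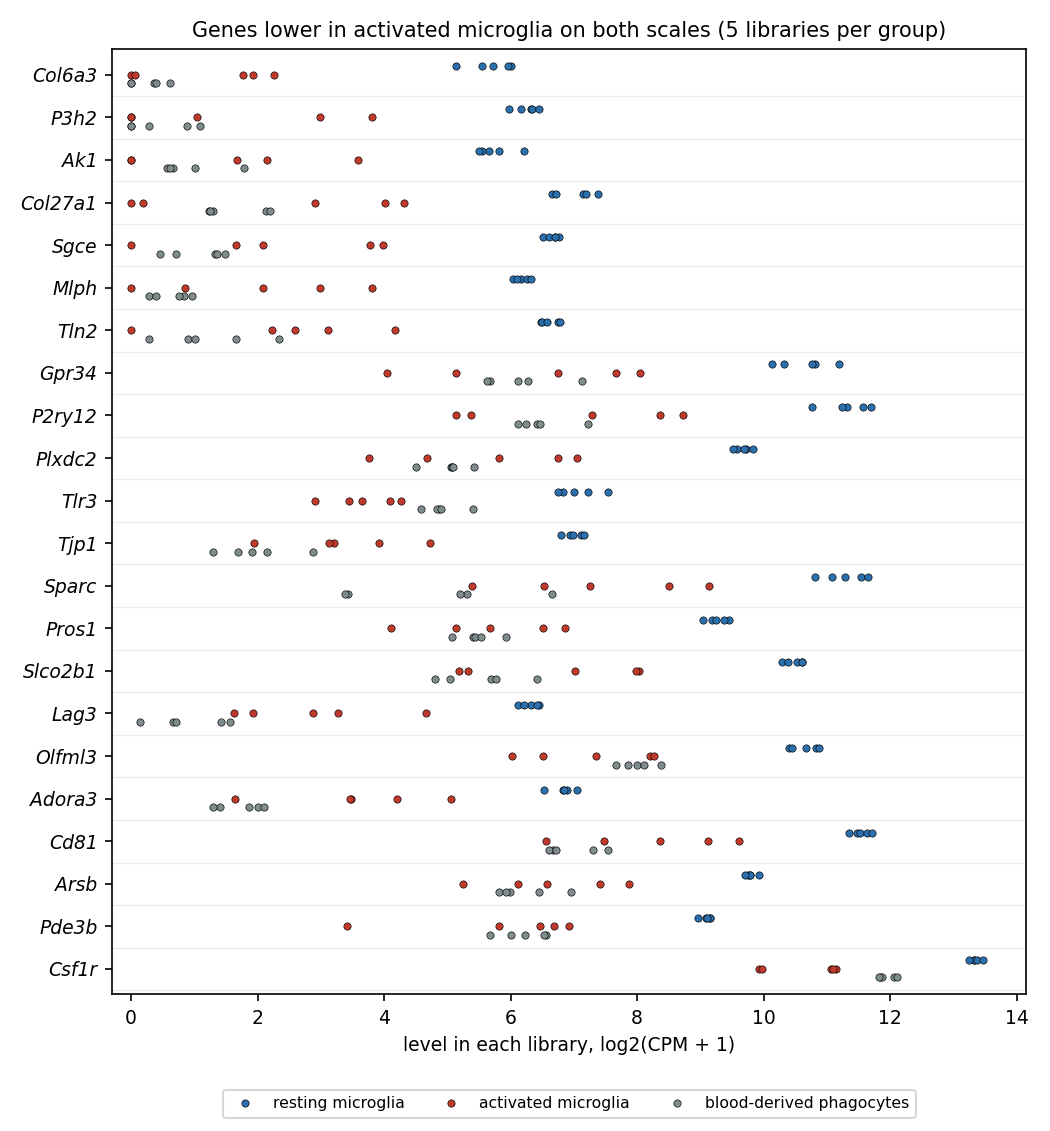
Levels as log2(CPM + 1) in each vehicle library for 22 genes called lower in activated microglia on both scales. Resting libraries lie above all activated libraries for each gene, which the choice by smallest p or lowest activated level favours. Activated libraries spread more widely than resting ones, as for P2ry12 with 34.3 to 423 CPM.

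Of 24 surface receptors that sense the surroundings 6 were higher and 10 lower (median -1.04), against 18.2% and 10.7% of all genes, and the number lower ranged from 5 to 14 over 18 alternatives. The lower ones included the purine receptors P2ry12 and P2ry13 and the adenosine receptor Adora3, whose call was lost once detected-gene counts entered the fit (edgeR adjusted p = 0.0693). P2ry13 stood at 128, 139.8, 169, 241 and 171 CPM in activated and 978, 635, 824, 721 and 995 CPM in resting libraries (-2.30 ± 0.22, edgeR adjusted p = 2.6e-05), yet by -0.11 per macrophage transcript it was not called. Cx3cr1, the fractalkine receptor, was likewise lower by TMM (-2.64 ± 0.34, edgeR adjusted p = 2.0e-04) and not called per macrophage transcript (-0.65). Among the higher receptors, Ccr1, a receptor of inflammatory chemokines, stood at 849, 690.2, 778, 1020.2 and 711 CPM in activated, 28.4 to 59.7 CPM in resting and 132 to 210.4 CPM in blood-derived libraries. C5ar1, the complement C5a receptor, stood at 646, 649, 588, 1168 and 675 CPM in activated and 111, 182, 101, 104 and 104 CPM in resting libraries (2.62 ± 0.26, edgeR adjusted p = 3.1e-05), with 160.4 to 259 CPM in blood-derived ones. The chemokine receptor Ccr6, outside the list, was lower in every activated library (8.49 to 20 CPM) than in every resting one (75.3 to 148 CPM, -2.82 ± 0.29, edgeR adjusted p = 4.5e-05).

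Of 19 transcription factors of microglia and macrophages 4 were higher and 9 lower, the latter from 2 to 10 over the alternatives. Sall1, the identity factor of microglia, and Mef2c, a factor of resting microglia, were named after their values were seen, and were lower, with differences of -3.73 ± 0.78 and -1.90 ± 0.44 (edgeR adjusted p = 0.00412 and 0.00731). Per macrophage transcript Sall1 was still lower (-2.0 ± 0.55, adjusted p = 0.00487) while Mef2c was at 0.02 and not called. The TMM calls of Sall1 and Mef2c were lost once detected-gene counts entered the fit (adjusted p = 0.18 and 0.52). Bhlhe40, a repressor induced in inflammatory macrophages and lymphocytes, stood at 304, 329, 396, 305 and 284 CPM in activated, 9.69, 29.3, 11.3, 6.64 and 6.35 CPM in resting and 171 to 227 CPM in blood-derived libraries (4.66 ± 0.43, edgeR adjusted p = 2.1e-05). Spi1, encoding the myeloid factor PU.1, was higher (1.07 ± 0.19, edgeR adjusted p = 0.00141) and highest in activated replicate 4, the library richest in neutrophil genes.

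Factors of other blood lineages were mostly higher, 10 of 14 with 1 lower (median 4.89). In 7 of the 10 the blood-derived level was below 0.25 times the activated one, against 18.8% of all higher genes. Cebpb, which drives emergency granulopoiesis and macrophage activation, stood at 2253, 3293, 2792, 3438 and 1749 CPM in activated and 420.2, 656, 488, 533 and 418 CPM in resting libraries (2.40 ± 0.22, edgeR adjusted p = 1.7e-05). Cebpa, which neutrophils turn down as they mature, was the lower one, at 83, 44.1, 36.6, 62.3 and 72.2 CPM in activated and 146 to 183 CPM in resting libraries (-1.48 ± 0.23, edgeR adjusted p = 6.8e-04). Of 16 stress and inflammatory factors 7 were higher and 1 lower. Bcl3, a co-activator of NF-kappaB, was higher (3.14 ± 0.30, edgeR adjusted p = 2.6e-05), and Jun, a subunit of AP-1, lower (-1.17 ± 0.17, edgeR adjusted p = 4.8e-04), while its partner Fos was not called, with 3338 to 5069.7 CPM in activated and 2518 to 5034 CPM in resting libraries (0.07 ± 0.19).

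TGF-beta signalling keeps microglia in their homeostatic state. Of 15 genes of this pathway 2 were higher and 7 lower (median -0.93), against 18.2% and 10.7% of all genes. The receptor genes Tgfbr1 and Tgfbr2 stood at 478, 176, 223, 337 and 365 and at 197, 166, 132, 243 and 229.7 CPM in activated libraries. In resting libraries they ran from 1292 to 1511 and from 512 to 817 CPM, without overlap (-2.19 ± 0.27 and -1.67 ± 0.21, edgeR adjusted p = 1.4e-04 and 1.8e-04). Smad7, the feedback inhibitor that the pathway induces, stood at 37.9, 43.7, 33.5, 44.3 and 43.7 CPM in activated and 91.2, 121, 131, 116 and 98.2 CPM in resting libraries (-1.48 ± 0.16, edgeR adjusted p = 4.5e-05). Per macrophage transcript the same 3 genes were at -0.18, 0.47 and 0.73 and not called. Tgfbi, named above, went the other way.

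Genes for the uptake of synapses and debris included 14 lower and 3 higher of 28 (median -1.14), with 8 to 16 lower over the alternatives. Lrp1, a receptor for apolipoproteins and myelin debris, stood at 490.3, 796, 357, 425 and 509 CPM in activated and 1296, 1002, 1024, 1056 and 759 CPM in resting libraries (-1.03 ± 0.21, edgeR adjusted p = 0.0037). Cd47, the signal that protects cells from uptake, was higher and alike in the activated libraries (423 to 495 CPM against 159 to 223 CPM, 1.33 ± 0.13, edgeR adjusted p = 3.2e-05). Itgb5, an integrin that binds dying cells, was lower (-2.36 ± 0.32, edgeR adjusted p = 2.8e-04). Itgb2, shared by the integrins of macrophages and neutrophils, was not called (1196 to 1796 CPM in activated and 857 to 1244 CPM in resting libraries, 0.44 ± 0.17, edgeR adjusted p = 0.083).

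Among 18 adhesion genes 8 were higher and 5 lower. Itga4, a subunit of the integrin VLA-4 of monocytes and lymphocytes, stood at 238, 266, 217, 175 and 142 CPM in activated, 4.38 to 14.5 CPM in resting and 130.2 to 188 CPM in blood-derived libraries (4.48 ± 0.33, edgeR adjusted p = 6.4e-06). Selplg, the selectin ligand that is high in resting microglia, was lower (-1.29 ± 0.22, edgeR adjusted p = 0.00102), a call lost once detected-gene counts entered the fit (adjusted p = 0.0824).

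Genes of the actin cytoskeleton, which drive crawling and engulfment, were mostly higher. Of 28 such genes 24 were higher and 2 lower (median 1.43), against 18.2% of all genes higher, and 22 to 24 were higher in each of 18 alternatives. In 22 of the 24 the blood-derived level lay between 0.25 and 1 times the activated level and in 2 below that range. The shares among all higher genes were 60.1% and 18.8%. None of the 24 was at or above the activated level, against 21% of all higher genes. Actb, encoding beta-actin, stood at 11078, 11456, 12113, 17954 and 14077 CPM in activated and 5576, 6462, 6857, 5959 and 6746 CPM in resting libraries (1.06 ± 0.18, edgeR adjusted p = 0.0012). Rac2, a GTPase of blood cells that neutrophils need for migration, stood at 1172, 1798, 1429.6, 2354 and 1302 CPM in activated, 181 to 224 CPM in resting and 307 to 366 CPM in blood-derived libraries (2.99 ± 0.21, edgeR adjusted p = 5.0e-06). Anxa2, a membrane-binding annexin, stood at 681, 468, 792, 1379.5 and 772, 7.55 to 23.2 and 228 to 286 CPM. Activated replicate 4, with the highest neutrophil sum, was also the highest for Actb, Actg1, Rac2 and Anxa2, and the part of neutrophil content in these values was not tested.

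All 12 genes of the pentose phosphate pathway and the NADPH oxidase, which make NADPH and spend it on the oxidative burst, were higher (median 1.46), and 10 to 12 were higher in the alternatives. They were not all of 1 class. Cybb, the catalytic subunit of the phagocyte oxidase, stood at 1374, 645, 724, 1214 and 1264 CPM in activated, 299.6, 569, 277, 295 and 382 CPM in resting and 2044 to 2631 CPM in blood-derived libraries (1.52 ± 0.29, edgeR adjusted p = 0.00226). Ncf4, a regulatory subunit, stood at 261, 450.5, 362, 536 and 335 CPM in activated and 67.5 to 85 CPM in resting libraries (2.34 ± 0.20, edgeR adjusted p = 1.1e-05). Taldo1, a transaldolase of the pentose phosphate pathway, stood at 668, 488, 675, 1051 and 573 and 109 to 158 CPM, with 247 to 291 CPM in blood-derived libraries. For Cybb the blood-derived libraries were the highest of the 3 gates, and for Ncf4 and Taldo1 the activated ones.

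Genes of protein folding in the endoplasmic reticulum included lower but no higher members. Of 12 genes 7 were lower and none higher (median -0.79), against 10.7% of all genes lower. The 4 chaperones Hspa5, Hsp90b1, Calr and Canx were all lower, with differences of -0.82, -1.41, -1.15 and -1.39. Canx, the lectin chaperone calnexin, stood at 348, 249, 251, 281 and 283 CPM in activated and 699, 753, 679, 699.6 and 826 CPM in resting libraries (edgeR adjusted p = 3.8e-05), and Hsp90b1 at 567, 467, 399, 470.3 and 647 and 1258, 1401, 1229, 1411 and 1371 CPM (edgeR adjusted p = 8.3e-05). These groups did not overlap. Per macrophage transcript all 12 genes were higher, as were 67.7% of all genes, and their median of 1.45 lay below the 2.09 of all genes.

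**Figure D5:**
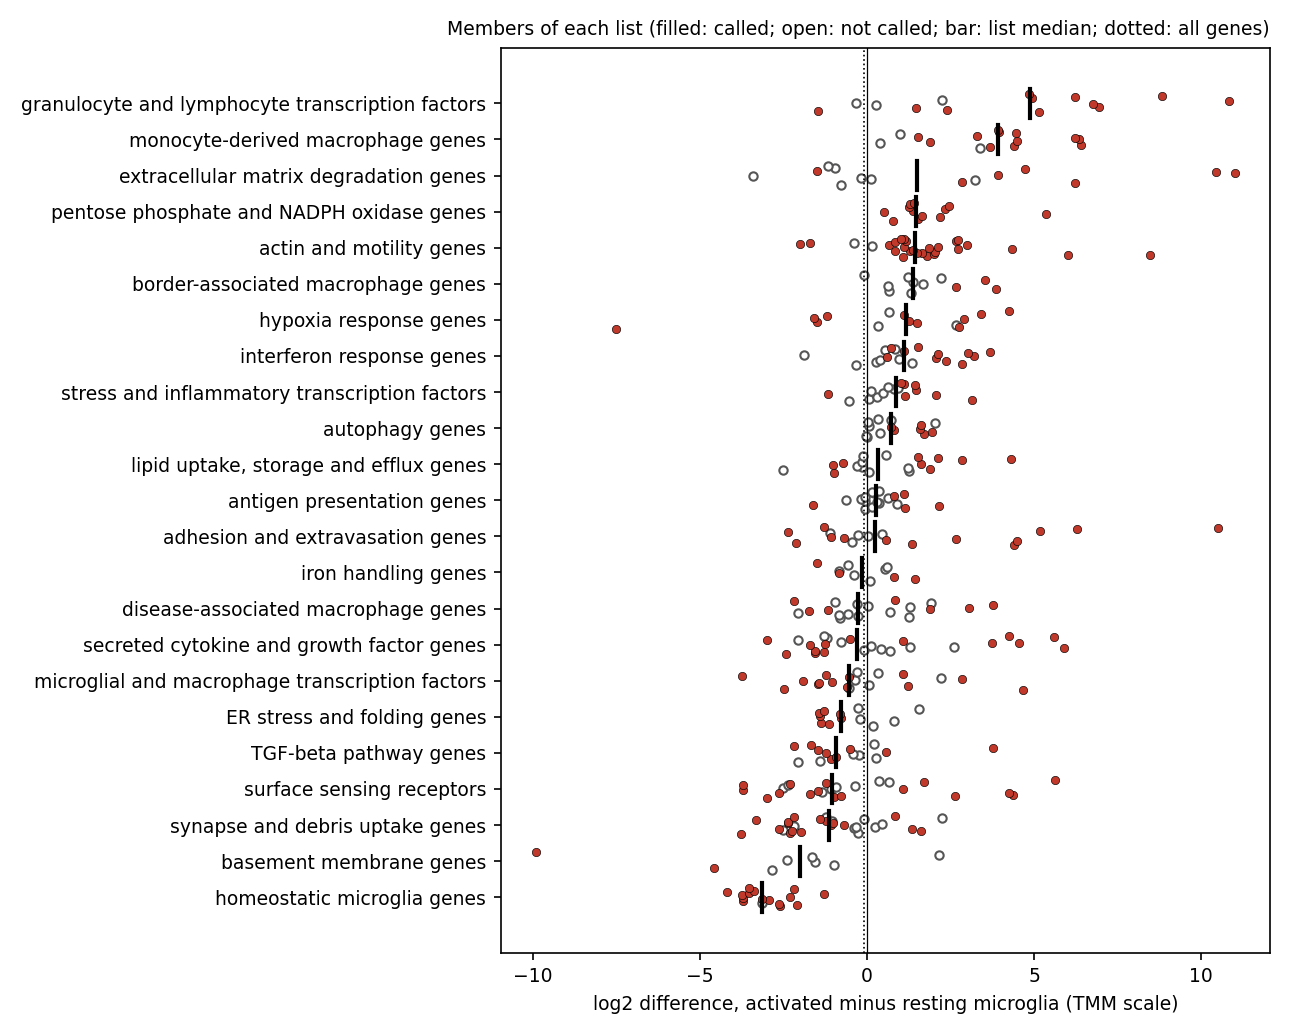
Log2 difference of each tested member of 23 gene lists on the TMM scale, with called genes filled, genes not called open, a bar at the list median and a dotted line at the median of all genes. The median of the actin and motility genes is 1.43 and that of the homeostatic microglia genes -3.14.

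Interferon induces a set of antiviral genes through the factor ISGF3, which binds the interferon-stimulated response element in their promoters. Of 19 interferon response genes 11 were higher and none lower (median 1.11), against 18.2% of all genes higher and a median of -0.10. The blood-derived level was below the activated one in 10 of the 11. That was also so for most higher genes, since only 21% of them had a blood-derived level at or above the activated one. Of the genes tested, 9548 had a promoter window in the RefSeq table (GRCm38.p6, 250 bases before to 50 after the start), as did 9 of the 11 higher interferon genes. The letters TTTC, any 2 bases and TTTC, or GAAA, any 2 bases and GAAA on the other strand, stood in the window of 395 genes tested (4.14%). They stood in 3 of the 9 higher interferon genes and in 4 of the 6 interferon genes that had a window and were not called. The 3 windows are shown since these genes were higher and hold the element. Capitals mark it, and in Isg15 3 matches overlap. A match is a description of the letters and not of binding.
Rsad2 (chr12:26456403-26456702, minus strand): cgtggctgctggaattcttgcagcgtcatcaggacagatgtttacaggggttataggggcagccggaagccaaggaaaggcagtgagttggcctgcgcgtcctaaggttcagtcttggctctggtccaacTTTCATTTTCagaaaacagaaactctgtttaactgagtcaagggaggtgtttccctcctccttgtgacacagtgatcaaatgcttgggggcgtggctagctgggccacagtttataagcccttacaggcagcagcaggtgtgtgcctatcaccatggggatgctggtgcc
Isg15 (chr4:156200769-156201068, minus strand): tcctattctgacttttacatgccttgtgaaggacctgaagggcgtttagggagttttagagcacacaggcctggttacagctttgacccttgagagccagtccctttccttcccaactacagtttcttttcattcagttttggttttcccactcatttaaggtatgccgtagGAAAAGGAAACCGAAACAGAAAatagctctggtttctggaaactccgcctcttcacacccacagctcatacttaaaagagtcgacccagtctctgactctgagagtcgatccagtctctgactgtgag
Ifit1 (chr19:34640639-34640938, plus strand): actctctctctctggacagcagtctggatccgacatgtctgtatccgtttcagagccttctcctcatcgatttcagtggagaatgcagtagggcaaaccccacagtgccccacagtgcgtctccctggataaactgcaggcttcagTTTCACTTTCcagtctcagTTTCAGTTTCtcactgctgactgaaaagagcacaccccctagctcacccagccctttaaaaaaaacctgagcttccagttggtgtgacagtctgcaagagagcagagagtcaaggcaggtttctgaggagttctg

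Rsad2, encoding the antiviral enzyme viperin, stood at 168, 189, 238, 206 and 161 CPM in activated, 12.6, 17.5, 7.99, 13.4 and 22.8 CPM in resting and 27.7 to 71.4 CPM in blood-derived libraries (3.68 ± 0.27, edgeR adjusted p = 6.4e-06). Isg15, a ubiquitin-like modifier, stood at 112, 156, 243, 162 and 73.2 CPM in activated and 13.1, 21.3, 10.6, 13.3 and 22.1 CPM in resting libraries (3.19 ± 0.34, edgeR adjusted p = 4.9e-05). Ifit1, which binds foreign RNA, stood at 96.2, 101, 132, 93.3 and 114 CPM in activated and 15.3, 19.5, 12.6, 24.5 and 31.8 CPM in resting libraries (2.35 ± 0.25, edgeR adjusted p = 5.6e-05). In all 3 the activated libraries lay above both other gates, and the highest of them was replicate 3, which held the most NK cell genes and fewer neutrophil genes than replicates 4 and 5. Irf7, the factor that amplifies the response, stood at 321, 296, 462, 210.3 and 293 CPM in activated, 54.4, 95.8, 41.1, 57.4 and 124 CPM in resting and 256 to 578 CPM in blood-derived libraries (2.07 ± 0.31, edgeR adjusted p = 5.3e-04), and was thus the 1 higher member whose blood-derived mean was not below the activated one.

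Of 24 secreted factors 6 were higher and 8 lower, where 18.2% and 10.7% of all genes were. Il1b, the inflammasome cytokine, stood at 9519.7, 6942, 8239.8, 8872 and 5392 CPM in activated, 234, 628, 288, 257 and 256 CPM in resting and 1805 to 4539.9 CPM in blood-derived libraries (4.54 ± 0.34, edgeR adjusted p = 6.7e-06). Ccl3 and Ccl4, chemokines that microglia induce quickly when disturbed, cell isolation included, were higher in every resting library than in every activated one, at 1552 to 2802 and 1827 to 3279 against 699 to 1079 and 753 to 972 CPM (-1.30 ± 0.19 and -1.57 ± 0.18, edgeR adjusted p = 5.0e-04 and 7.2e-05). Cxcl2, which recruits neutrophils through Cxcr2, stood at 789, 2018, 2145, 1649 and 756 CPM in activated and 24.1, 69.4, 16.7, 10.4 and 2.06 CPM in resting libraries (5.88 ± 0.84, edgeR adjusted p = 3.8e-04).

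Of 14 hypoxia response genes 7 were higher and 4 lower, and members of the same sugar pathway differed in direction. Slc16a3, a lactate exporter, stood at 524, 192, 371, 985 and 402 CPM in activated and 37.4, 79.5, 38.3, 34.6 and 44.8 CPM in resting libraries (3.41 ± 0.45, edgeR adjusted p = 2.1e-04), and Ldha, which makes lactate, was higher (1.25 ± 0.17, edgeR adjusted p = 2.3e-04). Hk2, the first enzyme of glycolysis, was lower, at 46.9, 38, 38.8, 39 and 71.4 CPM in activated and 129, 141, 133, 125 and 130.5 CPM in resting libraries (-1.51 ± 0.20, edgeR adjusted p = 2.2e-04). Of 14 genes of matrix degradation 6 were higher and 1 lower, with the largest differences in the neutrophil collagenase Mmp8 and gelatinase Mmp9 (11.00 and 10.44). Adam8, a protease of leukocytes, stood at 755, 438, 545, 1420.2 and 680.2 CPM in activated and 5.89 to 19.9 CPM in resting libraries (6.21 ± 0.49, edgeR adjusted p = 8.4e-06), with 77.1 to 223 CPM in blood-derived ones. Of 14 autophagy genes 6 were higher and none lower. Gabarap, which coats the autophagosome membrane, stood at 623, 1013, 736, 827 and 604 CPM in activated and 234, 306, 216, 225 and 254 CPM in resting libraries (1.59 ± 0.16, edgeR adjusted p = 3.5e-05), whereas the cargo receptor Sqstm1 was not called (0.04 ± 0.30). Fth1 and Ftl1, the chains of the iron store ferritin, were higher (1.42 ± 0.19 and 0.80 ± 0.19, edgeR adjusted p = 2.3e-04 and 0.0081), the Ftl1 call not being made on the FPKM values (limma-trend adjusted p = 0.054) or with detected-gene counts in the fit (0.23). Their means were higher still in blood-derived libraries, at 13524 ± 644 CPM for Fth1 against 10943 ± 2052 CPM in activated ones.

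Some of the most abundant genes were not called. Of 18 antigen presentation genes 4 were higher and 1 lower (median 0.25), shares near the 18.2% and 10.7% of all genes. Cd74, the chaperone of MHC class II, stood at 22136, 10782, 10056, 7229 and 16436 CPM in activated and 8438, 14713, 5639.7, 11057 and 20096 CPM in resting libraries (0.14 ± 0.38, edgeR adjusted p = 0.82). H2-D1 and B2m, which form MHC class I, stood at 4698 to 6107 and 4174 to 5854 CPM in activated and 4300.2 to 7915 and 3899 to 5765 CPM in resting libraries (-0.07 ± 0.19 and -0.07 ± 0.15). The co-stimulatory pair split, with Cd80 higher (2.14 ± 0.31, edgeR adjusted p = 4.5e-04) and Cd86 lower (-1.60 ± 0.32, edgeR adjusted p = 0.00303). The Cd86 call was lost once detected-gene counts entered the fit (adjusted p = 0.15).

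The second table, of log2(FPKM + 1) values, holds genes that the count table lacks, and 3873 of these were tested with limma-trend. Of them 300 (7.75%) were higher and 402 (10.4%) lower. The smallest p among the higher ones belonged to 4833407H14Rik, a long intergenic noncoding RNA (ENSMUSG00000097779, GRCm38 chromosome 19, 53460622 to 53462723), at 6.44 ± 0.34 in activated, 0.77 ± 0.35 in resting and 1.48 ± 0.15 log2(FPKM + 1) in blood-derived libraries. Gm37347, annotated as to be experimentally checked, stood at 4.71 ± 0.07 in activated and 0.24 ± 0.20 log2(FPKM + 1) in resting libraries. BC018473, annotated as antisense, stood at 6.20 ± 0.88, 0.17 ± 0.18 and 0.09 ± 0.19 log2(FPKM + 1) in activated, resting and blood-derived libraries, low in the last 2 groups as Cxcr2 was. Igkc, the constant part of the antibody kappa chain, stood at 6.53, 10.27, 8.13, 8.59 and 10.09 log2(FPKM + 1) in the activated libraries and 0.24 ± 0.32 in the resting ones. Its highest library was replicate 2, which was also the highest for the B cell gene Ms4a1. Replicate 1 was the lowest for both, but replicate 5 was second for Igkc and replicate 3 second for Ms4a1.

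Among the lower genes of this table, Gm10790, a processed transcript (ENSMUSG00000113856, GRCm38 chromosome 13, 41865915 to 41913092), stood at 1.24, 0, 0.20, 2.16 and 1.65 log2(FPKM + 1) in activated and 5.11, 4.06, 4.96, 4.58 and 4.72 in resting libraries, with 0.28 ± 0.24 in blood-derived ones (limma-trend adjusted p = 5.6e-05). Activated replicates 4 and 5 were the highest and replicate 2 was listed at 0, the order seen for P2ry12. Gm4065 and Gm27008 were listed at 0 in all 5 activated libraries and stood at 1.36 ± 0.31 and 2.02 ± 0.51 log2(FPKM + 1) in resting ones. No strand setting is given in the sources used here, so reads of an antisense gene and of its partner cannot be told apart.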

How the data were processed

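Expected counts per protein-coding gene and log2(FPKM + 1) values were used as deposited by the authors. FPKM values had the same upper quartile in every library. The build was GRCm38 and bcl2fastq was named, per the submitters' processing notes. Aligner, counter and filters are not given in the sources used here. Expected counts were rounded, with 16.2% of values not whole.

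Activated and resting libraries were compared with edgeR 4.0.16 (R 4.3.3; filterByExpr, TMM, robust quasi-likelihood F test, Benjamini-Hochberg, adjusted p under 0.05), and again scaled by the geometric mean of 10 macrophage genes. DESeq2 1.42.0 and limma 3.58.1 were alternatives, as were other filters, scalings, covariates and samples. Summed levels had exact permutation tests. Fits were tested on simulated data.

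The members and all 41 gene lists were chosen with earlier results of these data known. Genes were named by rule: the markers; in each list the 4 most abundant and the 3 with the smallest p; outside the lists the smallest p in each direction; the 25 with the smallest p whose blood-derived mean was at or above the activated one; those lower on both scales; and the most abundant uncalled genes. Sall1, Mef2c and Nr1h3 were added after their values were seen. Replicate numbers did not pair libraries. Counting error of reads is small at 11789803 counts or more per library. The number of molecules sampled by the low-input kit is not known, so depth does not limit that error. A floor of 3 counts over a group was used for genes without counts, and folds over it are of reads and not of molecules. Some genes that the rule names are not reported here.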

Additional observations from a re-analysis of the deposited data

Results flagged for a closer look

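In 16 of 184 groups of 5 libraries examined, 1 library lay farther from the others than a Dixon test allows, where chance gives about 1 in 20. Of these, 8 were resting replicate 2. It was the highest resting library for Lgals3 (100.3 against a group median of 34.3 CPM), Thbs1 (108 against 45.4), Bhlhe40 (29.3 against 9.69) and C5ar1 (182 against 104). It was also the highest for Il1b (628 against 257), Slc16a3 (79.5 against 38.3), Cxcr4 (25.3 against 7.99) and Cfp (37.9 against 11.8). All 8 genes were higher in the activated gate, and each level in resting replicate 2 was below every activated library.

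Among activated libraries, replicate 4 stood apart for Prg2 (228 against a median of 22 CPM) and C5ar1 (1168 against 649), replicate 1 for Cd209a (181 against 48.9), replicate 3 for Kcnj8 (41.6 against 7.92) and replicate 5 for Hk2 (71.4 against 39). Replicate 2 stood apart for B2m (5854 against 4591). Among resting libraries replicate 1 stood apart for Cd209a (0.895 CPM against a median of 0) and replicate 5 for the summed macrophage scaling genes, at 37067 CPM against 32999.5 CPM before TMM.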

How the results depend on the processing

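On the FPKM values, which cover more genes, 5591 were called in place of 3499. Leaving out 1 library gave 2898 to 5103 calls, the highest without activated replicate 2, and 357 to 644 in place of 464 genes at least as high in blood-derived phagocytes. The 173 genes lower per macrophage transcript became 326 with lysosomal scaling genes, 455 with no filter beyond 1 count and 527 with limma-voom, and 150 to 370 with 1 library left out. The cause was not tested. The summed levels kept direction and call in every alternative. With detected-gene counts in the fit, which do not overlap between groups, 2475 genes were called, and Siglech turned from lower to a difference of 0.60 ± 1.36 (adjusted p = 0.77). This was the only sign change counted among the named genes, and signs of genes called in neither fit were not compared.

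Same-numbered libraries did not deviate together (correlations of deviations 0.048, 0.044, -0.107, 0.043 and 0.046), so the replicate numbers were not read as pairs. With a replicate block 2680 genes were called (1691 higher, 989 lower) and 7170 per macrophage transcript, 241 of them lower. Among 114 called genes named here, 93 kept direction and call in every alternative on the TMM scale, and 21 lost the call with detected-gene counts in the fit. All libraries were deep, and activated libraries spread more than resting ones.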
